A study of Saccharomyces cerevisiae with 12 samples.

Results

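Intron-containing genes outside the ribosome are the subject here, in budding yeast (Saccharomyces cerevisiae) that had been exposed to radicicol, a natural product that inhibits the chaperone Hsp90, and then grown without it. Members were protein-coding identifiers beginning with Y that had at least 2 exon rows in the deposited annotation, with at least 30 bases between neighbouring rows. The 90 ribosomal protein genes that met this rule were left out, as were 10 further listed genes. The rule kept 173 genes of 7130 gene identifiers. Of these, 166 had 1 intron and 7 had 2, namely DYN2, EFM5, HMRA1, SUS1, TAD3, VMA9 and YOS1. ASC1, which binds the small ribosomal subunit, and YML6, a mitochondrial ribosomal protein, stayed in because the rule goes by the start of the symbol.

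Colonies were grown overnight with 10 µM radicicol or without it, diluted to an OD600 of 0.001 and grown for a further 24 h before collection by filtration. The groups were untreated RNA, pre-treated RNA, untreated fragments and pre-treated fragments, each with 3 libraries. RNA libraries came from poly(A)-selected RNA cut to lengths matching ribosome footprints, and fragment libraries from the RNA that ribosomes protect against RNase I in monosomes. The labels state that 3 colonies were each split between media with and without radicicol, but do not tie a replicate number to a colony, and name neither strain nor medium. Libraries held 737922 to 2481336 assigned RNA reads and 1155966 to 1639436 assigned fragments, and the third untreated RNA library was the shallowest. Members took 1.848 to 1.903% of the RNA reads in every library. They took 1.56 to 1.62% of fragments in untreated cultures and 1.64 to 1.68% in pre-treated ones.

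Budding yeast has few introns, most genes that have one have only one, and many of these introns lie close to the start codon. The spliceosome, built from small nuclear ribonucleoproteins and many auxiliary proteins, removes them in the nucleus before export. Several genes of meiosis carry introns that are spliced efficiently only when the meiosis-specific factor Mer1 is present, among them AMA1, REC107 (also called MER2), HFM1 (MER3) and SPO22. In the annotation used here the members' first exons had a median length of 38 bases and ranged from 1 base (COX5B) to 1920 bases (SRC1). First exons were shorter than 30 bases in 70 members. First introns had a median of 97 bases and ranged from 49 to 773 bases.

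Because each exon was counted as a row of its own and a read touching more than 1 row was left out, the deposited files show where within a gene the reads fell. The comparison of fragments with RNA on this measure gave the clearest gene-specific pattern, in AMA1 and REC107. AMA1 encodes a meiosis-specific activator of the anaphase-promoting complex. It lies on chromosome VII, plus strand, 945145 to 947019 (sacCer3), with a first exon of 1183 bases, a 93-base intron and a second exon of 599 bases. In untreated cultures its first exon held 24 of 60, 21 of 56 and 14 of 21 RNA reads, but 26 of 26, 38 of 38 and 32 of 32 fragments. No fragment of the 96 fell on the second exon, which allows a share of up to 3.13%, whereas 78 of 137 RNA reads did. In pre-treated cultures the first exon held 26 of 64, 21 of 49 and 15 of 45 RNA reads, and 25 of 27, 34 of 34 and 48 of 48 fragments. The first exon makes up 66.4% of the exon length, so RNA was below and fragments above that share in every library but one, the shallowest untreated one. The bound of 3.13% covers counting error only. The libraries carry no molecular identifiers, so copies of 1 molecule can count more than once in the shares of reads here and below.

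REC107 encodes a protein required to form meiotic double-strand breaks. It lies on chromosome X, minus strand, 468555 to 469579, with exons of 316 and 629 bases around an 80-base intron. Its first exon makes up 33.4% of the exon length. In untreated cultures that exon held 15 of 113, 22 of 85 and 3 of 41 RNA reads, and 17 of 23, 19 of 25 and 14 of 18 fragments. In pre-treated cultures it held 20 of 132, 17 of 123 and 22 of 119 RNA reads, and 20 of 28, 21 of 26 and 21 of 30 fragments. RNA and fragments did not overlap for this share in any library, and untreated and pre-treated fragments covered much the same range, 73.9 to 77.8% and 70.0 to 80.8%. SRC1, an inner nuclear membrane protein whose transcript is known to be spliced in 2 alternative ways, showed the same contrast. Its 1920-base first exon held 47.2% of untreated RNA reads and 84.3% of untreated fragments, and 54.0% and 83.7% after pre-treatment. AMA1 and REC107 were listed at low RNA levels, 16.4 and 55.3 CPM per kilobase of exon in untreated cultures, against 2276 for ACT1. CPM are counts scaled to each library's effective total.

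**Figure D1:**
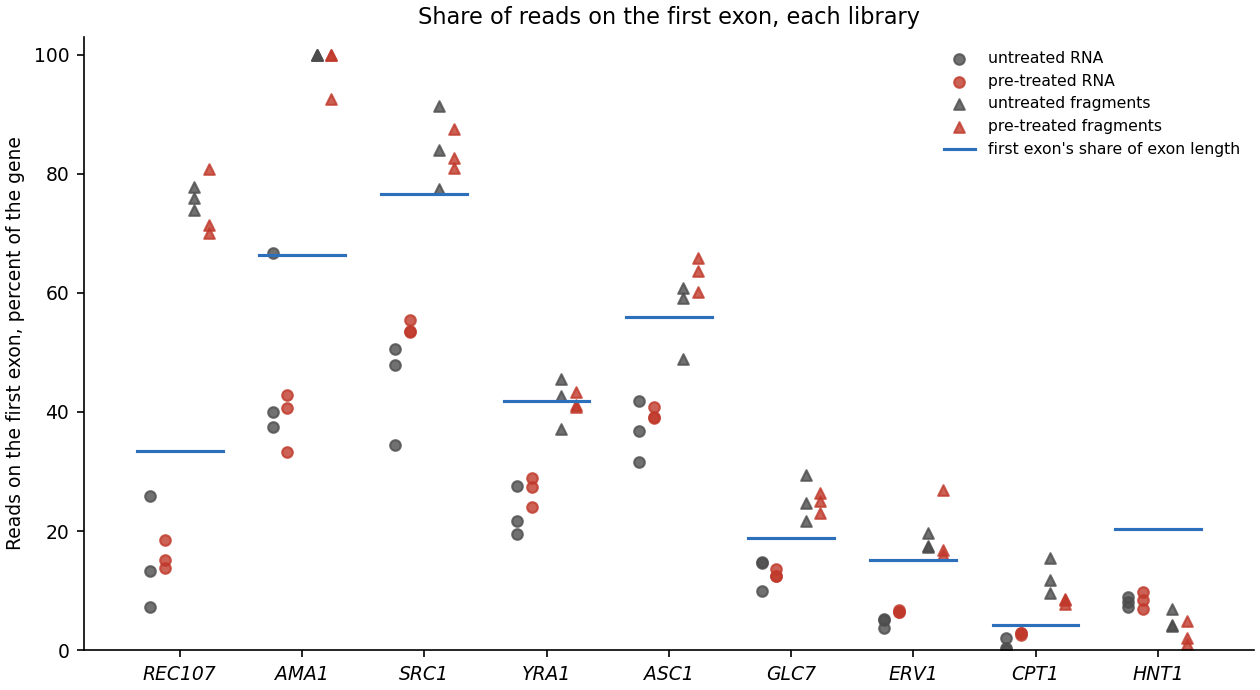
Percent of a gene's reads that fell on its first exon, one point per library, for RNA (circles) and fragments (triangles) of untreated (grey) and pre-treated (red) cultures, with the first exon's percent of exon length as a blue line. In REC107 and AMA1 the fragments lie far above the RNA, at 70.0% or more in REC107 and 92.6% or more in AMA1, and untreated and pre-treated points intermingle.

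The test of unequal exon shares between fragments and RNA, edgeR's exon-level test with adjustment over all rows of genes with several rows, was added after the read positions had been seen. In untreated cultures 17 of 66 member rows passed (25.8%), beside 22.9% of all 170 rows tested. In pre-treated cultures 32 of 91 passed (35.2%), beside 38.7% of 212. These shares are near the background, so an unequal share as such was not particular to the members. In untreated cultures the first exon's share was higher in fragments for 12 of 29 members tested (41.4%) and in RNA for none, beside 29.1% and 3.8% of 79 first exons over all genes. In pre-treated cultures it was higher in fragments for 17 of 42 (40.5%) and in RNA for 5 (11.9%), beside 32.7% and 24.8% of 101. The shares over all genes include the members. Among genes that are not members they were 22.0% and 6.0% of 50 first exons in untreated cultures. In pre-treated cultures they were 27.1% and 33.9% of 59. The difference between members and other genes was not tested. A row could enter the test through 1 library type alone, so these counts depend on the filter on low counts. CPT1's untreated first exon was tested with 9 RNA reads and 43 fragments, and PFY1's, with 19 and 3, was not tested. Of the members, 11 were higher in fragments in both treatments: AMA1, APE2, ASC1, CPT1, ERV1, GLC7, PAL2, REC107, SRC1, YCL012C and YRA1. The adjusted p was 0.00463 in untreated and 4.47e-06 in pre-treated cultures for AMA1, and 3.3e-05 and 1.77e-10 for REC107. Without the second untreated culture the adjusted p of AMA1 was 0.11 (0.00265 to 0.11 over 7 alternatives) and that of SRC1 0.0658. Without the third it was 0.0985 for SRC1 (0.00334 to 0.0985 over 7). REC107 passed in all 7 alternatives in each treatment. YCL012C was the least stable of the 11: its untreated adjusted p of 0.0338 missed the threshold without any 1 of the 3 cultures (0.0947, 0.179 and 0.116), as did its pre-treated value without the first culture (0.0578). ASC1 missed it in untreated cultures without the third (0.0541). The count of 17 rows was 9 without the second untreated culture.

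In others of the 11 the fragments lay close to the length share and the RNA below it. YRA1, an adaptor for mRNA export, had 23.9% of untreated RNA reads and 42.1% of untreated fragments on a first exon that is 41.9% of its length. ASC1 had 36.9% and 56.6% on one of 55.9%. GLC7, the catalytic subunit of protein phosphatase 1, had 12.9% and 25.3% on one of 18.9%, and CPT1, a cholinephosphotransferase, 0.99% and 12.7% on one of 4.23%, so in these 2 genes the fragments lay above the length share and the RNA below it. The 5 members whose first exon held a larger share of RNA in pre-treated cultures were COF1, HNT1, MRA1, PFY1 and SAR1. COF1 (cofilin), PFY1 (profilin) and SAR1 have first exons of 14, 13 and 28 bases. Reads that crossed the intron were left out, so a contrast on such short first exons does not show where ribosomes lay. The same limit holds for SAC6 (21 bases) and TUB1 (25 bases), which were higher in fragments. The call for SAR1 (adjusted p = 0.0322) was lost with a replicate block (0.066) and without the first (0.194) or the third (0.143) culture, and that for MRA1 without the first (0.288). Among the 17 higher in fragments, YOS1 (adjusted p = 0.0415) kept its call in 3 of 7 alternatives, with 0.0867 under the block and 0.552 without the second culture. HMRA1 (0.118) and TEF4 (0.0731) missed the threshold without the second culture.

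Over all members with reads in every library, the first exon held fewer RNA reads than its length predicts at nearly all lengths. The median ratio of read share to length share in RNA was 0.444 for first exons of 1 to 10 bases, 0.468 for 11 to 29, 0.487 for 30 to 60, 0.489 for 61 to 150 and 0.484 for over 150 and up to 400. In 9 members with first exons over 400 bases it was 0.789. In fragments the ratio rose with length, from 0 for 1 to 10 bases through 0.377 (11 to 29), 0.624 (30 to 60), 0.863 (61 to 150) and 0.879 (over 150 and up to 400) to 1.07 in 8 members above 400 bases. First exons of up to 10 bases held no fragment at all in 16 of 23 members. Reads that ran across into another exon row were not counted, so low ratios on short first exons are set in part by the counting. The rise with length is therefore no measure of where ribosomes lay. The ratios of REC107 (2.23) and AMA1 (1.49) were the highest in fragments among members with first exons of over 150 to 400 bases and of over 400 bases, respectively. The ratio cannot exceed the inverse of the length share, so AMA1's rank is set in part by exon lengths. SRC1, CGI121, GPI15, CQD1 and PCH2, with length shares of 76.7%, 83.5%, 85.7%, 90.8% and 91.5%, could not reach 1.49. ACT1, whose first exon has 10 bases, had 82 of 25890 RNA reads and 13 of 23077 fragments on it over the 6 libraries of each type.

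**Figure D2:**
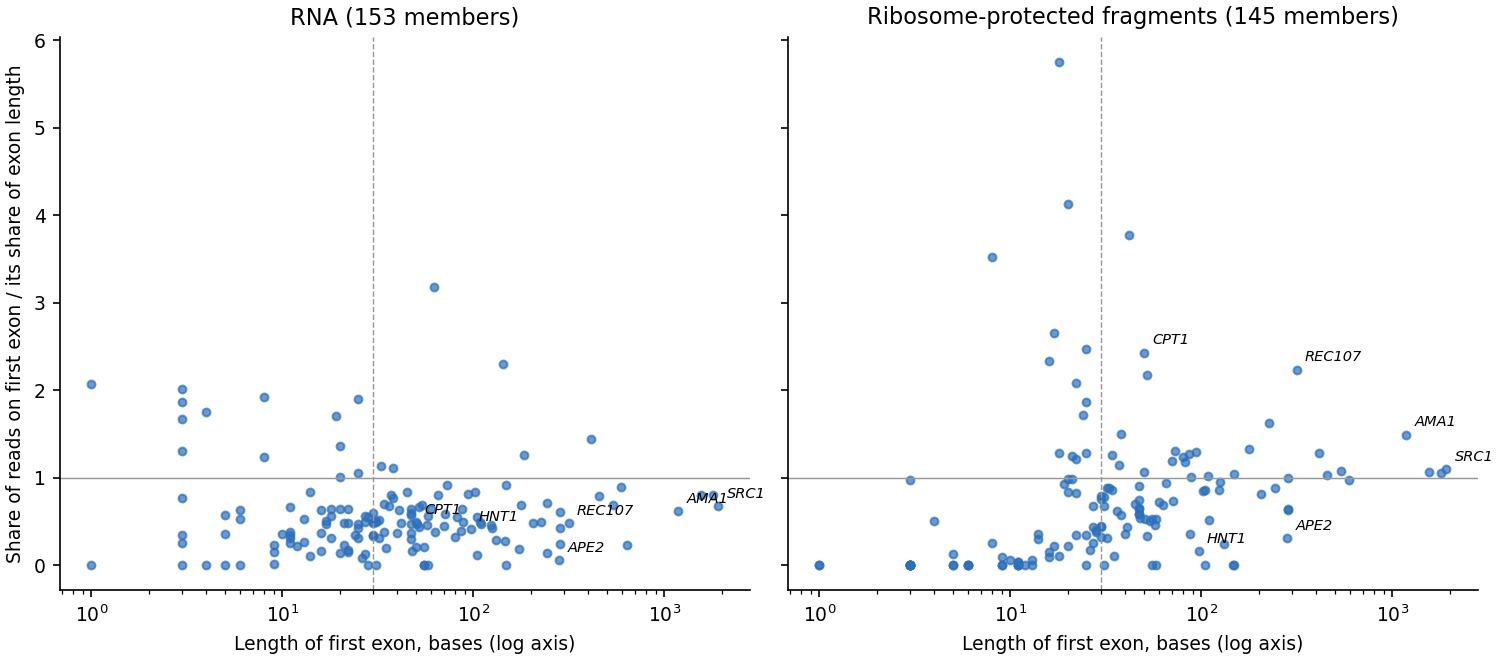
Ratio of the first exon's share of reads to its share of exon length against first exon length in bases (log axis), one point per member with reads in every library, summed over 6 RNA libraries (left) and 6 fragment libraries (right). The dashed line marks 30 bases. RNA points lie mostly below 1 at all lengths, and fragment points fall to 0 at the shortest first exons, with REC107 and AMA1 high among the long ones. Reads that ran across into another exon row were not counted, which lowers the ratio of short first exons.

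No change of exon share with pre-treatment passed. None of 95 member rows from 46 members passed in RNA and none of 56 rows from 28 members in fragments, by edgeR's exon-level test adjusted over 238 and 146 rows. The background was 0% in both. At an unadjusted p under 0.05 there were 4 member rows in RNA and 1 in fragments, or 4.21% and 1.79% beside 5.04% and 3.42% of all rows.

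The whole-series count table, which gives each gene once, was higher than the summed exon rows for all 7 members with 2 introns. The difference ran from 1.57% (TAD3) to 15.7% (VMA9) in RNA and from 2.56% (EFM5) to 26.6% (SUS1) in fragments. VMA9 encodes a subunit of the vacuolar proton pump, and SUS1 a subunit shared by the SAGA and TREX-2 complexes. For 134 members with 1 intron the median difference in RNA was -0.26%, and for genes with 1 exon row -0.71%. Percent differences were taken only where the exon rows held 100 or more reads. Of the members with 1 intron that met this, UBC5 had the largest rise in fragments, 19.2% more in the whole-series table, with 0.49% fewer RNA reads. Below that limit YBR090C, which overlaps YBR089C-A on the same strand, had 6 fragments and 46 RNA reads in its exon rows and 105 and 253 in the whole-series table.

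The effect of pre-treatment on the level of each member's RNA was small. Of 147 members that passed the filter on low counts, 7 rose and 6 fell (8.84%), beside 13.2% of all 5578 genes tested (7.17% higher, 6.06% lower), by edgeR's quasi-likelihood test at an adjusted p of 0.05. With DESeq2's test 3 rose and 4 fell. The members' median log2 change was 0.02, against -0.00 for all genes, and no member changed more than 2-fold. The other 26 members were too low to test. Among these were the meiotic genes HOP2, MEI4, PCH2, REC114 and SAE3, and 11 members had no read in any of the 12 libraries. SRC1, ASC1 and OM14 passed in fragments too and in the same direction, 3 of the 13 called in RNA and of the 14 called in fragments. Of the members tested in both types 2.24% were called in both and in the same direction, beside 7.63% of all 5070 genes tested in both. Of the 12 members called in RNA and tested in both types this was 25.0%, beside 55.0% for all genes so tested. As a share of those called in fragments it was 21.4% and 57.0%. That difference was not tested. In bulk samples, a change in the mix of cells and a change per cell cannot be told apart.

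The 7 members whose RNA rose belong to different processes. SRC1 RNA was 54.0, 48.1 and 42.3 CPM in untreated and 74.6, 80.2 and 64.4 CPM in pre-treated cultures, with no overlap, a log2 change of 0.57 ± 0.14 (SE, n = 3 and 3) and an edgeR adjusted p of 0.00637. ASC1, the yeast RACK1 homologue, was at 496, 541 and 527 CPM and then at 682, 664 and 636 CPM, a log2 change of 0.34 ± 0.09 (edgeR adjusted p = 0.0141). RRT8, a gene of spore wall assembly, was at 101, 92.6 and 104 CPM and then at 147, 152 and 126 CPM, a log2 change of 0.52 (edgeR adjusted p = 0.00307). In all 3 genes every pre-treated library lay above every untreated one. Genes past the threshold were chosen for a gap between groups, so such separation, here and in the genes below, is no further support. The others were POP8, a subunit of RNases P and MRP (0.59), VPS29, a retromer subunit (0.56), BET1, a SNARE of traffic between endoplasmic reticulum and Golgi (0.52), and ERV1, a sulfhydryl oxidase of the mitochondrial intermembrane space (0.38). ERV1 kept its call in only 1 of the 6 fits that left out 1 library, and lost it with either other scaling (0.0517 and 0.0699), DESeq2 (0.176), the whole-series table (0.0602), the longest exon row (0.0675) and the replicate block (0.0781). BET1 also kept its call in 1 of those 6 fits, and POP8 in 2. With DESeq2 the adjusted p was 0.143 for BET1, 0.156 for POP8 and 0.0755 for VPS29.

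OM14, an abundant protein of the mitochondrial outer membrane, had the firmest fall. Its RNA was at 526, 366 and 420 CPM in untreated and 294, 314 and 271 CPM in pre-treated cultures, a log2 change of -0.58 ± 0.12 (SE, n = 3 and 3; edgeR adjusted p = 0.00123). NCB2, a subunit of the transcriptional repressor NC2, was at 177, 169 and 201 CPM and then at 144, 115 and 124 CPM (log2 -0.50). ACT1, which encodes actin, was at 2677, 3004 and 2023 CPM and then at 2008, 1987 and 1879 CPM (log2 -0.39, edgeR adjusted p = 0.0266). The groups did not overlap in any of these genes, though the lowest untreated ACT1 value lay just above the highest pre-treated one. RCF3 (-0.40), linked to cytochrome c oxidase, and CMC4 (-0.56), a protein of the intermembrane space, also fell. So did YJR079W (-0.87), whose reads are uncertain because it overlaps YJR078W on the same strand. ACT1 kept its call in 1 of the 6 fits that left out 1 library (edgeR adjusted p up to 0.14). RCF3 kept it in 2, and CMC4 and YJR079W in 3. With DESeq2 the adjusted p was 0.0971 for RCF3 and 0.0938 for CMC4.

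The RNA count rests on few libraries: it was 7 without the first untreated or the first pre-treated library, 3 without the second pre-treated and 5 without the third pre-treated library, and only OM14 and RRT8 passed in all 6 fits that left out 1 library. With upper-quartile scaling 6 rose and 8 fell, and the members' median changed sign to -0.02.

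In ribosome-protected fragments 11 of 134 members tested rose and 3 fell (10.4%), beside 13.4% of all 5090 genes tested (8.53% higher, 4.85% lower). With DESeq2's test 5 rose and 2 fell. The largest rises were in HNT1 (log2 0.92), PFY1 (0.55) and SRC1 (0.53). Of 9 members tested on the actin and tubulin list, 3 rose and none fell: PFY1, TUB1 and TUB3. The median log2 change of all members was 0.04 against -0.01 for all genes tested, and -0.01 with upper-quartile scaling.

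HNT1 encodes a nucleotide-binding hydrolase of the HIT family and lies on chromosome IV, minus strand, 239019 to 239606. Its fragments were at 23.2, 31.9 and 42.2 CPM in untreated and 67.5, 55.3 and 60.2 CPM in pre-treated cultures. All pre-treated libraries lay above all untreated ones, and the log2 change of 0.92 ± 0.18 (SE, n = 3 and 3) had an edgeR adjusted p of 0.000531. Its RNA overlapped, at 366, 311 and 397 CPM against 363, 394 and 372 CPM (log2 0.08, edgeR adjusted p = 0.654).

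Profilin, which binds actin monomers, rose from 246, 253 and 227 CPM of PFY1 fragments to 373, 357 and 334 CPM (log2 0.55 ± 0.09, edgeR adjusted p = 8.26e-05). TUB1, the main alpha-tubulin gene, rose from 212, 174 and 177 CPM to 250, 275 and 257 CPM (log2 0.48, edgeR adjusted p = 0.00111). TUB3, the second alpha-tubulin gene, was at 79.2, 78.6 and 93.8 CPM and then at 112, 108 and 120 CPM (log2 0.44, edgeR adjusted p = 0.0117). TUB3 kept its call in 4 of the 6 fits that left out 1 library, and its adjusted p was 0.0718 with DESeq2. In none of these 3 genes did the groups overlap, but TUB1 and TUB3 share much of their sequence and reads that mapped to both were left out. SAC6, the actin-bundling fimbrin, which is not on the cytoskeleton list, was close to the threshold (log2 0.24, edgeR adjusted p = 0.0495) and missed it in 5 of the 6 fits that left out 1 library. COF1 (cofilin) was at 439, 514 and 487 CPM and then at 558, 577 and 566 CPM without passing (edgeR adjusted p = 0.0624).

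SRC1 and ASC1 fragments rose as their RNA did. SRC1 went from 74.4, 71.8 and 78.6 CPM to 116, 101 and 108 CPM (log2 0.53), and ASC1 from 265, 302 and 285 CPM to 385, 333 and 340 CPM (log2 0.31). The remaining rises were in YRA1 (log2 0.41), MOB1, an activator of the mitotic exit kinase Dbf2 (0.49), PMI40, mannose-6-phosphate isomerase (0.41), and APE2, an aminopeptidase (0.28). Of the 6 fits that left out 1 library, APE2 kept its call in 2, ASC1 and MOB1 in 3, PMI40 in 4 and YRA1 in 5. With DESeq2 the adjusted p in fragments was 0.0778 for APE2, 0.0682 for ASC1, 0.0949 for MOB1 and 0.104 for PMI40. APE2 and ASC1 also missed the threshold with upper-quartile scaling (edgeR adjusted p = 0.0801 and 0.059).

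Of the 3 members whose fragments fell, OM14 went from 274, 345 and 284 CPM to 209, 226 and 228 CPM (log2 -0.45, edgeR adjusted p = 0.00222). UBC5, a ubiquitin-conjugating enzyme, went from 136, 139 and 144 CPM to 113, 99.9 and 111 CPM (log2 -0.37), with an equal estimate in RNA that did not pass (-0.37, edgeR adjusted p = 0.0549). Its near-identical paralog UBC4 had a log2 change of 0.22 in fragments and 0.19 in RNA, neither past the threshold. Reads that mapped to both genes were left out. In fragments UBC5 kept its call in 3 of the 6 fits that left out 1 culture (edgeR adjusted p up to 0.127). With DESeq2 its adjusted p was 0.105. MRA1 (YPR010C-A) went from 101, 126 and 119 CPM to 86.7, 79.0 and 85.2 CPM (log2 -0.47), and kept its call in 4 of those 6 fits. The groups were separate in each of the 3 genes. HNT1, OM14, PFY1, SRC1 and TUB1 passed in all 6 fits that left out 1 culture. Without the second pre-treated library the count of 14 was 7.

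**Figure D3:**
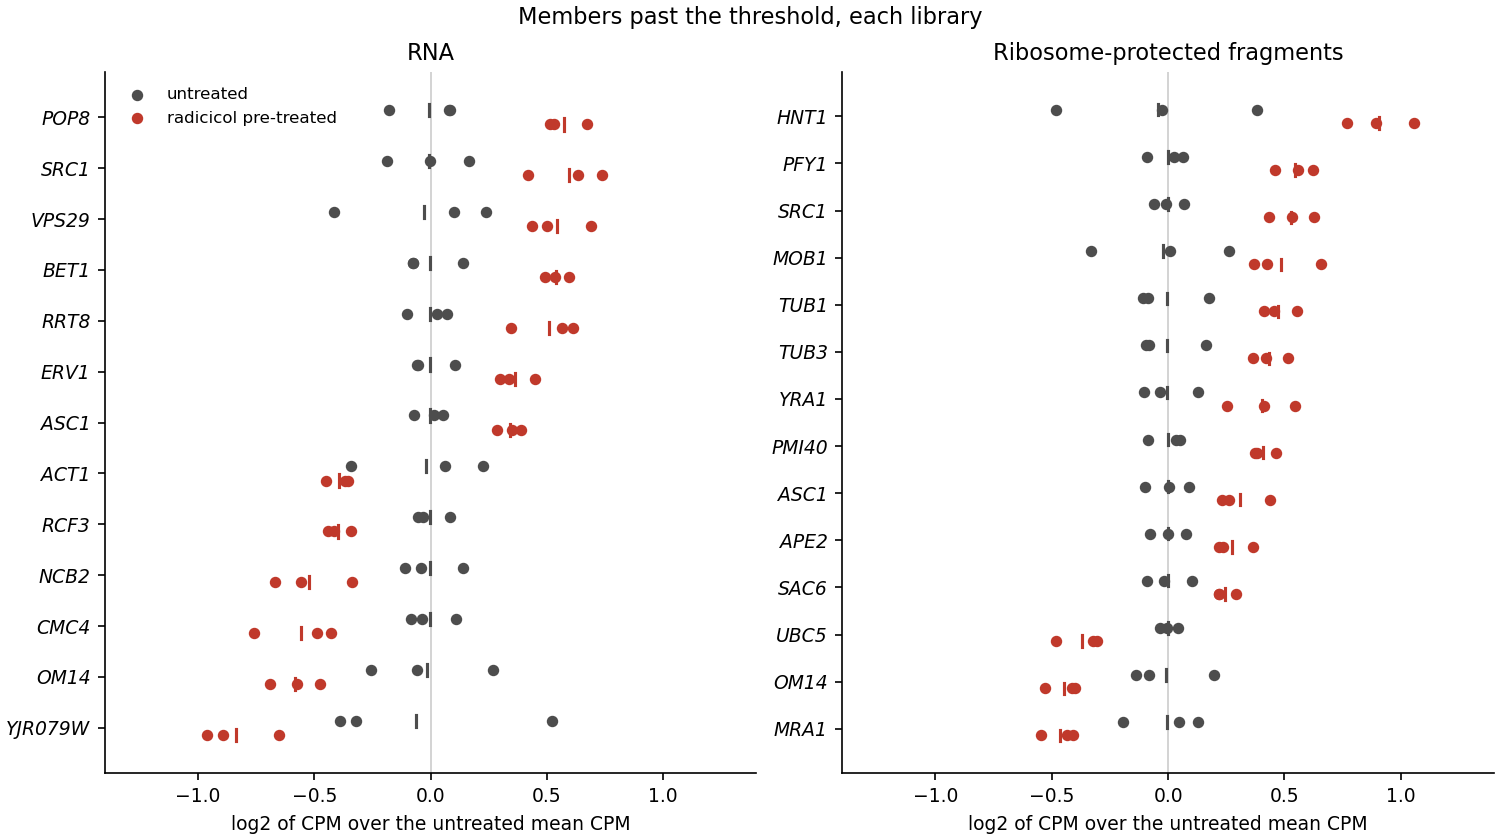
log2 of each library's CPM over the untreated mean, for the 13 members past the threshold in RNA (left) and the 14 in fragments (right); points are libraries and ticks are group means on the log2 scale. Untreated and pre-treated points separate in every gene shown, with HNT1 fragments the farthest apart, and most changes lie within 0.6 of 0. The genes were chosen by the threshold, which favours separate groups.

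**Figure D4:**
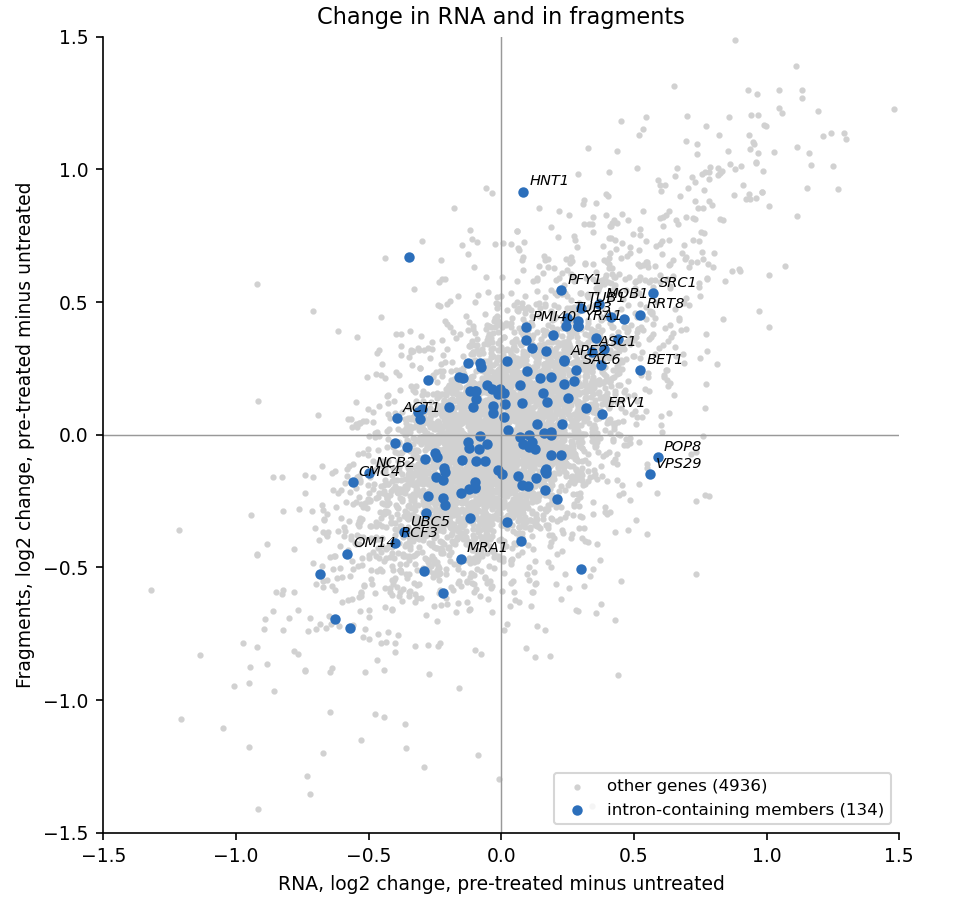
log2 change in RNA (horizontal) and in fragments (vertical) for 134 members (blue) over 4936 other genes (grey), with members past either threshold named; 49 genes, none a member, lie beyond the axes. The members lie within the grey cloud, and HNT1 stands off it at a fragment change of 0.92 with an RNA change of 0.08.

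Members that passed on the other lists are counted here beside 13.2% of all genes tested in RNA and 13.4% in fragments. With 25 members or fewer per list, the counts are not read as a difference from those shares, which was not tested. The values below are log2 changes in RNA and then in fragments. None of 10 members on the list for ubiquitin and related conjugation, which also holds DTD1, a D-aminoacyl-tRNA deacylase, passed in RNA, and UBC5 alone passed in fragments. UBC9, the SUMO-conjugating enzyme, was at -0.06 and -0.10. Of 25 members on the secretory pathway list, which also holds the histone chaperone VPS75, BET1 and VPS29 passed in RNA and none of 24 tested in fragments. SAR1, the GTPase of COPII vesicles, was at -0.03 and 0.17. Of 12 members for transcription and chromatin only NCB2 passed, in RNA, with the glycolytic activator GCR1 at 0.13 and 0.04 and the TFIIH kinase KIN28 at -0.08 and -0.00. COX5B, the hypoxic form of a cytochrome c oxidase subunit, was at -0.10 and -0.20, and TEF4, a subunit of elongation factor 1B, at -0.01 and 0.15. The meiosis and sporulation list has 15 members, among them SRC1, whose known role lies elsewhere. Of the other 14, 9 could be tested in RNA and 5 in fragments, and none passed. RRT8, the gene of spore wall assembly that rose in RNA, is not on this list. AMA1 was at -0.36 in RNA (edgeR adjusted p = 0.219) and -0.05 in fragments, and DMC1, the meiotic recombinase, at -0.07 in RNA.

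Among the 17 members for splicing, RNA processing and export, POP8 passed in RNA and YRA1 in fragments. The splicing factors among them did not pass: MUD1 of the U1 particle (-0.15 in RNA, -0.22 in fragments), SMD2 of the Sm ring (0.13, -0.05), LSM2 of the U6 ring (-0.12, -0.20) and STO1 of the cap-binding complex (0.11, -0.03). Over a list of 95 splicing factor genes, of which 6 are members, 2 rose and 2 fell in RNA (4.21%) and 1 fell in fragments (1.05%), against 13.2% and 13.4% of all genes. The 2 that rose were SME1 of the Sm ring (0.72) and the helicase SUB2 (0.31), and those that fell were SNU71 of the U1 particle (-0.50) and PRP6 of the tri-snRNP (-0.44). PRP9 of the U2 particle fell in fragments, from 31.2, 27.1 and 37.2 CPM to 19.3, 20.9 and 21.3 CPM (log2 -0.62, edgeR adjusted p = 0.0434). The median log2 change of the list was -0.04 in RNA and -0.11 in fragments, beside -0.00 and -0.01 for all genes. With upper-quartile scaling 2 of the list fell and none rose in RNA, and 2 fell in fragments.

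Translational efficiency is taken as a gene's fragments relative to its RNA, and its change with treatment was tested in 1 model over all 12 libraries. No member of 144 passed, by edgeR's quasi-likelihood test of the interaction, and none by DESeq2, beside 1 of 5552 genes (0.018%). At an unadjusted p under 0.05 there were 11 members (7.64%), beside 7.91% of all genes, and of the 11 the ratio was higher in 8 and lower in 3. HNT1 had the smallest p: its log2 ratio, with the median gene at 0, was -3.54, -2.84 and -2.78 in untreated and -1.98, -2.37 and -2.20 in pre-treated cultures, without overlap. The change was 0.84 ± 0.20 (SE, edgeR adjusted p = 0.141, and 0.0193 to 0.514 over 13 alternatives), and it passed with no filter on low counts at an adjusted p of 0.0472 and with RNA and fragments of the same number taken as a block at 0.0193. ACT1, the member with the highest RNA level per length, had ratios of 0.32, 0.32 and 0.86 and then of 0.91, 0.96 and 0.95 (change 0.47 ± 0.14, edgeR adjusted p = 0.335, and 0.0484 to 0.942 over 13 alternatives, the lowest with that block). ACT1 fragments were at 2504, 2762 and 2698 CPM and then at 2792, 2823 and 2699 CPM (log2 0.06, edgeR adjusted p = 0.671). VPS29 had lower ratios after pre-treatment, 1.43, 0.63 and 0.70 and then 0.31, 0.36 and -0.02 (change -0.70, edgeR adjusted p = 0.324), and so had SUS1 (change -0.80, edgeR adjusted p = 0.335).

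The level of translational efficiency had a 10th to 90th percentile range of -1.18 to 0.65 among members, inside that of all genes, -1.31 to 0.89. The members' median log2 ratio in untreated cultures was -0.13, against -0.01 for all genes and -0.31 for 138 cytosolic ribosomal protein genes. It was below -1 in 27 members (18.8%) and above 1 in 8 (5.56%), beside 14.4% and 7.51% of all genes. The highest were the nuclear pore protein NSP1 (1.34 ± 0.31, SD, n = 3), the PUF-family RNA-binding protein MPT5 (1.31 ± 0.23), the cell wall protein ECM33 (1.25 ± 0.21), SAC6 (1.17 ± 0.25) and the phosphatidylinositol transfer protein SEC14 (1.15 ± 0.31). These 5 do not differ beyond their spread.

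At the other end HNT1 stood at -3.05 ± 0.43 (SD, n = 3), 0.121 times the fragments per RNA of the median gene, from 29, 47 and 50 fragments beside 697, 607 and 301 RNA reads. It was followed by YJR112W-A (-2.31 ± 0.37), YCL002C (-2.21 ± 0.88) and SRB2, a Mediator subunit (-1.91 ± 0.22). Over the 3 untreated libraries of each type these had only 25, 15 and 62 fragments beside 201, 110 and 388 RNA reads. YJR079W had 0, 1 and 1 fragments beside 158, 86 and 35 RNA reads, and its ratio of -5.69 ± 1.39 depends on the pseudocount. REC107 was at -1.17 ± 0.24 and AMA1 at 0.17 ± 0.30, values that sum both exons. By RNA per kilobase the highest members in untreated cultures were ACT1 (2276 CPM per kilobase), COF1 (1310), the vacuolar ATPase subunit VMA10 (1171), OM14 (1080) and UBC4 (901). The lowest tested were HFM1 (1.68), SPO22 (2.35), YHL050C (2.53), REC102 (3.73) and OSW2 (7.84). HFM1 and SPO22 had 22 and 20 fragments in all, none of them on first exons of 58 and 55 bases, so that their exon shares could not be tested.

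**Figure D5:**
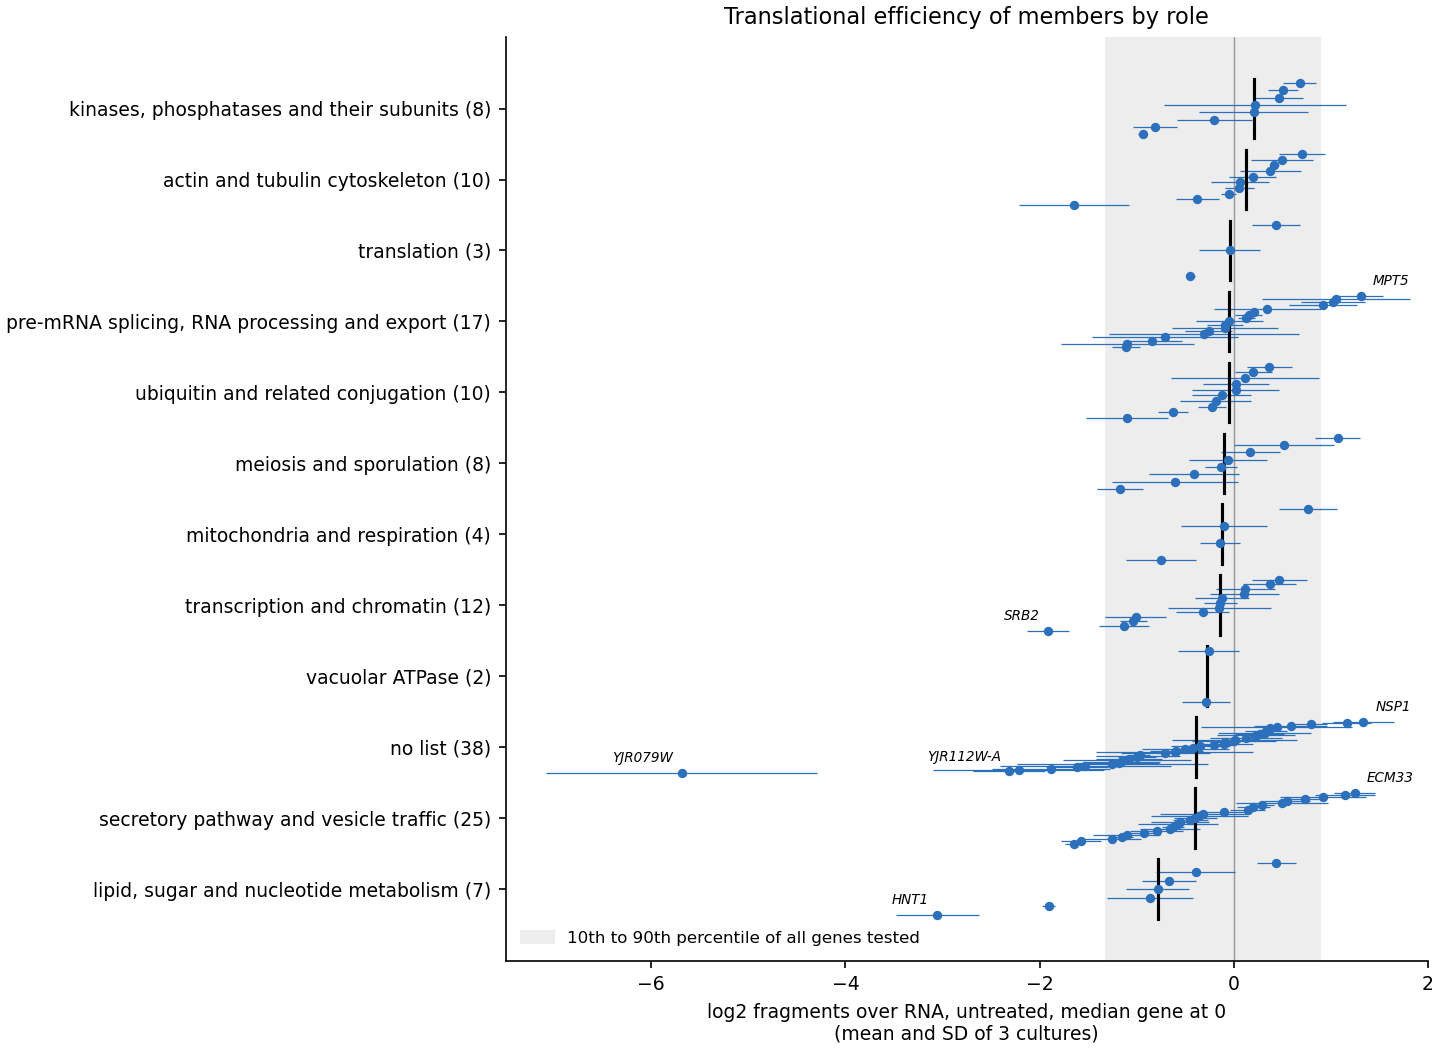
log2 ratio of fragments to RNA in untreated cultures, median gene at 0, for the 144 members tested, grouped by list; points are means and bars SDs of 3 cultures, black ticks are group medians, and the grey band is the 10th to 90th percentile of all genes tested, -1.31 to 0.89. Most members lie inside the band, and HNT1 and YJR079W lie farthest below it.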

How the data were processed

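The values are read counts, deposited as whole numbers. Per the file headers, the authors counted reads with featureCounts on the forward strand, with each exon row counted separately, so reads over more than 1 row and reads mapping to several places were left out. The build is sacCer3 and the tools named are STAR 2.7.1a, cutadapt 1.18 and SAMtools 1.9, per the submitters' processing notes. The making of the whole-series count table is not given in the sources used here.

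Exon rows were summed per gene. Each library type was fitted over all genes with edgeR 4.0.16 in R 4.3.3 (robust quasi-likelihood test, TMM scaling, filterByExpr with a minimum count of 10 and total of 15), with Benjamini-Hochberg adjustment over all genes tested and a threshold of 0.05. Change in translational efficiency was tested as a treatment-by-type interaction in a fit of 12 libraries, and exon shares were tested with diffSpliceDGE. Levels of translational efficiency used a pseudocount of 0.5 counts and pair RNA and fragments of the same number. SEs are the log2 change over the square root of F. The scripts were tested on simulated counts.

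Alternatives were DESeq2 1.42.0, other scalings, no filter, the whole-series table, the longest exon row alone, the replicate number as a block and leaving out each library or culture. Genes were named as the 10 largest rises and falls past the threshold per comparison, the 5 highest and lowest levels, and a list by role; splicing factors come from a second list. Members and lists were chosen with earlier results of these data known. CPT1, REC107, PAL2, YCL012C, YIP3, HMRA1 and others in the contrast of fragments with RNA were named after their values were seen. Of the member identifiers 170 of 173 matched the RefSeq gene table. Depth limits low genes: 3 counts equal 1.21 to 4.07 CPM in RNA and 1.83 to 2.6 CPM in fragments.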

Additional observations from a re-analysis of the deposited data

How the results depend on the processing

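With DESeq2's own test 7 members passed in RNA and 7 in fragments. Leaving out 1 library gave 3 to 17 in RNA and 7 to 14 in fragments, and leaving out 1 culture gave 0 in translational efficiency. With no filter on low counts 1 member passed in translational efficiency (HNT1). By the data the replicate numbers paired the samples weakly, and not in every comparison. Between treatments, deviations of same-numbered RNA libraries correlated at 0.01, 0.07 and 0.06, and every RNA library correlated best with its own number. Same-numbered fragment libraries correlated at -0.14, -0.01 and -0.06. RNA and fragments of the same number within a treatment correlated at 0.04 to 0.14 in all 6 cases and those of different numbers at -0.14 to 0.04, so each library correlated best with its own number there as well. With a replicate block 12 members passed in RNA, 12 in fragments and 2 in translational efficiency (HNT1, adjusted p = 0.0193, and ACT1, adjusted p = 0.0484, by edgeR), and 0 rows changed their exon share in either type. Splicing factor genes called with upper-quartile scaling were 2 in RNA and 2 in fragments. The members' median translational efficiency level in pre-treated cultures was -0.20, and -0.11 with a pseudocount of 5. The median first exon ratio in fragments below 30 bases was 0.197, and 0.256 in members with 100 or more reads per library. Member rows with unequal shares in fragments and RNA of untreated cultures, 17, were 27 with no filter, 21 with a replicate block and 9 to 17 without 1 culture. Of 1668 single-gene values under an alternative, none reversed a called direction, 105 lost the threshold (75 of them with 1 library or culture left out) and 15 gained it. The causes were not tested, except that fits with a library left out hold fewer samples. Genes that did not reach about 10 counts, scaled to depth, in at least 3 libraries were not tested in the main fits. Short first exons hide reads across the intron.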
